A study of Mus musculus with 12 samples.

Results

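The 10 genes described here are made by male germ cells, most of them in spermatids, the cells that follow meiosis and turn into sperm. They are Prm1, Prm2, Tnp1, Tnp2, Odf1, Akap4, Smcp, Ldhc, Pgk2 and Spata18, which are 10 of the 23042 entries of each expression table. Each was found by its symbol as 1 entry of its own in both tables. They were chosen by their measured FPKM in epididymal fat, because these genes were high in MED13cTg replicate 1, so their levels in that fat are given as a description with no test. FPKM is the number of sequenced fragments of a gene scaled to its transcript length and to all mapped fragments, so levels of different genes can be compared.

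RNA was sequenced from the epididymal fat (EWAT, a white adipose tissue) and from both heart ventricles of male C57BL/6 littermates aged 6 weeks, which were fed normal chow and not fasted. WT mice were compared with MED13cTg mice, which carry MED13, a subunit of the Mediator complex, as a transgene in the heart. The promoter that drives the transgene and the number of founder lines are not given in the sources used here. Each genotype and tissue had 3 libraries, for 12 in all. The 2 tissues come from tables that were estimated separately, so values set side by side across tissues are levels and were not tested.

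During sperm formation the round spermatid replaces its histones first with transition proteins and then with protamines, which pack the DNA of the sperm head. In the same period it builds a tail with outer dense fibers, a fibrous sheath and a sheath of mitochondria, and relies on forms of glycolytic enzymes that somatic cells do not make. Transcription of most of these genes is nearly confined to the testis. In the male mouse the epididymal fat pad lies against the epididymis, the duct that stores sperm, and is dissected close to the testis. Sperm in the duct still carry some of the messages that spermatids made.

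Tnp2, Prm2 and Prm1 are neighbours on chromosome 16. In the mm9 coordinates of the tables, Tnp2 lies at chr16:10788027-10788748, Prm2 at chr16:10791473-10792190 and Prm1 at chr16:10796424-10796916. Together with Prm3, at chr16:10790600-10791007, they span 8890 bp. The other genes are scattered: Tnp1 at chr1:73061648-73062473, Smcp at chr3:92387787-92392946, Spata18 at chr5:74023987-74070723, Ldhc at chr7:54116632-54133512, Odf1 at chr15:38148957-38156490, Pgk2 at chr17:40343962-40345554 and Akap4 at chrX:6644644-6655732. These are the spans of whole genes, introns included.

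As a description, the 250 bases before the starts of the genes were read from RefSeq promoters of the GRCm38.p6 build. There 9 of the 10 genes had an entry. The cyclic AMP response element, bound by the CREB and CREM family that activates many spermatid genes, is spelled TGACGTCA. It was in 0 of these 9 genes and in 1.55% of all 32851 promoters. Its shorter part TGACGT, which the full element contains, was in 2 of 9 genes and in 6.47% of all promoters. The related word TGATGTCA, which was picked after these promoters had been read, was in 2 of 9 genes and in 2.93% of all. The TATA word TATAAA was in 1 of 9 genes and in 12.4% of all. Both strands were searched for each word. The 100 bases before the start are shown for the 5 genes that held a word, in lower case with the matched bases in capitals, to show that no single word was shared by all of them.
Tnp1, chr1:73015900-73015999, minus strand, TGATGTCA 94 bases before the start: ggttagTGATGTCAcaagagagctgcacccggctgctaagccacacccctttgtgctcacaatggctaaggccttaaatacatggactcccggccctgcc
Akap4, chrX:7067415-7067514, plus strand, TGATGTCA 35 bases before the start: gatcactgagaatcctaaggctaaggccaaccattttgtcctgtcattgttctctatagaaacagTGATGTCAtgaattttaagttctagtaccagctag
Ldhc, chr7:46861163-46861262, plus strand, TGACGT 61 and 47 bases before the start: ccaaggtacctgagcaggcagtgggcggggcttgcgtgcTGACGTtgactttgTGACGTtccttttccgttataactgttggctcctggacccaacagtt
Spata18, chr5:73651280-73651379, plus strand, TGACGT read on the other strand 57 bases before the start: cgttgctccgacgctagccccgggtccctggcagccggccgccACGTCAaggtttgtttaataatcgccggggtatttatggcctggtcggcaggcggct
Prm2, chr16:10792106-10792205, minus strand, TATAAA read on the other strand 31 bases before the start: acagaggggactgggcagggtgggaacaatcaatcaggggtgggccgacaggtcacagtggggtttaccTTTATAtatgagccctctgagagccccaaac
A match of letters is a description of these windows and does not show that a factor binds there.

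Before the genes are taken one by one, the state of the libraries has to be given, because 2 of the 6 fat libraries stood apart. MED13cTg replicate 1 had Spearman rank correlations of 0.35 to 0.494 with the other fat libraries, and MED13cTg replicate 2 had 0.35 to 0.852. Each of the other 4 reached 0.968 or more with another fat library. Pairs among the ventricle libraries had 0.944 to 0.969. The summed FPKM of MED13cTg replicate 1 over 13 markers of mature adipocytes was 1517, below every other fat library. MED13cTg replicate 2 had the highest sum, at 81773, and the other 4 lay between 13875 and 32832. For 16 genes of the epididymal epithelium the sums were 64692, 60704 and 77714 in WT and 10364, 221 and 59193 in MED13cTg replicates 1, 2 and 3. Both of the libraries that stood apart were also the shallowest, with 0.662 and 0.753 of the fragments of WT replicate 1. Med13, the gene of the transgene, was measured in the ventricles at 13.1, 10.6 and 11.5 FPKM in WT against 263, 181 and 204 FPKM in MED13cTg. In fat, Med13 was at 7.84 to 11 FPKM in all 6 libraries.

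The protamines and the transition proteins package the DNA of the sperm head. Prm1, protamine 1, stood at 52.2, 61.5 and 62.2 FPKM in the WT fat libraries, against 3355, 0.838 and 96.9 in the MED13cTg ones. Prm2, protamine 2, stood at 64.9, 60.7 and 128 FPKM in WT, against 2598, 1.21 and 93 in MED13cTg. For both protamines the 3 MED13cTg libraries enclosed the WT range, with replicate 1 far above it, replicate 2 far below it and replicate 3 near it. Tnp1, transition protein 1, stood at 32.6, 43.5 and 33.3 FPKM in WT, against 3522, 2.47 and 55.9 in MED13cTg. Tnp2, transition protein 2, stood at 34.2, 43.9 and 29 FPKM in WT, against 2643, 0.791 and 64.1 in MED13cTg. Among all 23042 entries in MED13cTg replicate 1, Tnp1 ranked 5, Prm1 ranked 6, Tnp2 ranked 13 and Prm2 ranked 14, with Ldhc between them at 7.

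The genes of the sperm tail were lower in level and had the same order of libraries at the extremes. Odf1, which encodes a protein of the outer dense fibers, stood at 8.43, 4.31 and 16.2 FPKM in WT, against 462, 0.243 and 9.28 in MED13cTg. Akap4, the main scaffold of the fibrous sheath, stood at 3.36, 3 and 3.68 FPKM in WT, against 244, 0.124 and 5.89 in MED13cTg. Its WT libraries lay close together, at 3.35 ± 0.34 FPKM (SD, n = 3). Smcp, a cysteine-rich protein of the mitochondrial capsule, stood at 17, 11.5 and 29.7 FPKM in WT, against 815, 0.16 and 19.1 in MED13cTg. Odf1, Akap4 and Smcp shared their order in WT, with replicate 3 highest and replicate 2 lowest, as did Prm2 and Spata18.

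Ldhc and Pgk2 are the germ cell forms of lactate dehydrogenase and phosphoglycerate kinase, and Ldhc is transcribed already in meiotic spermatocytes. Ldhc stood at 40, 15.7 and 7.52 FPKM in WT, against 3242, 1.63 and 33 in MED13cTg. Pgk2 stood at 6.22, 2.99 and 3.77 FPKM in WT, against 364, 0.118 and 5.8 in MED13cTg. Relative to its mean, Ldhc varied most of the 10 among the WT libraries, at 21.1 ± 16.9 FPKM (SD, n = 3) and was lowest in WT replicate 3, where Odf1 and Smcp were highest. Spata18, a mitochondrial quality control gene first described in spermatids and also used by somatic cells, stood at 2.49, 1.24 and 3.05 FPKM in WT, against 91.3, 0.471 and 2.63 in MED13cTg. It was the least abundant of the 10 in MED13cTg replicate 1, where it ranked 1559.

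**Figure D1:**
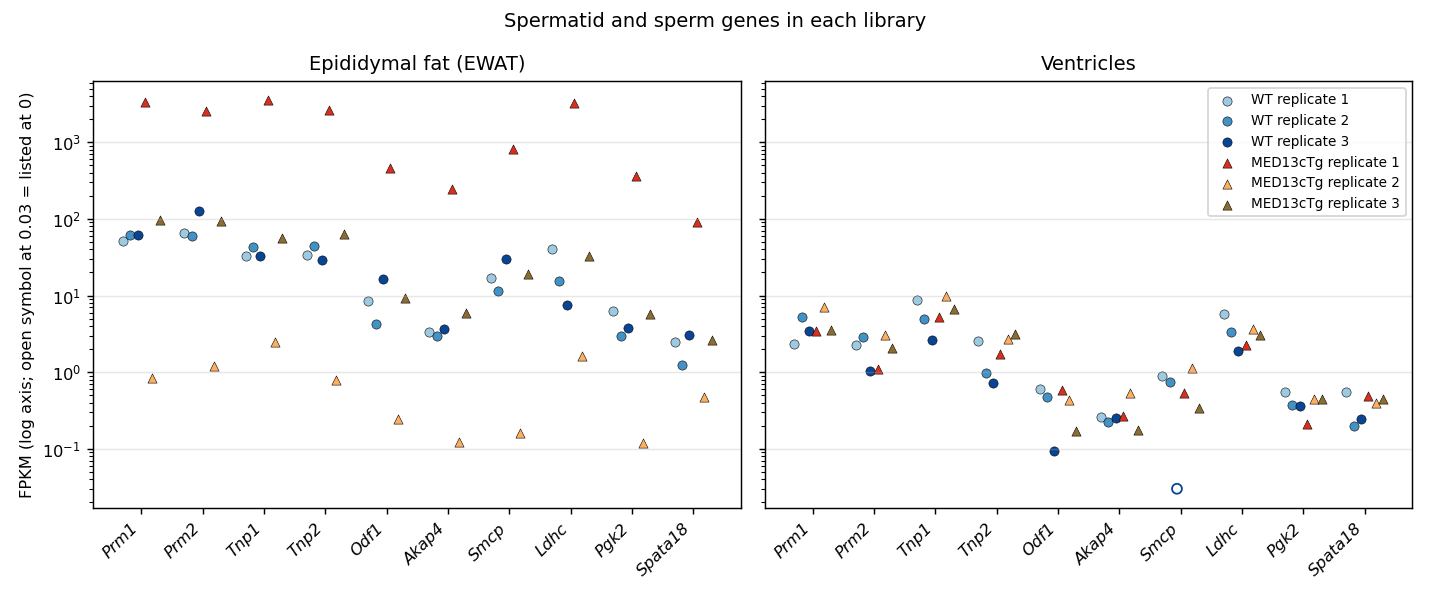
FPKM of each of the 10 genes (log axis) in the 6 epididymal fat libraries, left, and the 6 ventricle libraries, right, with 1 symbol per library (circles WT, triangles MED13cTg). MED13cTg replicate 1 lies above and MED13cTg replicate 2 below every other fat library for all 10 genes, while the genotypes overlap for all 10 in the ventricles, where the open circle marks Smcp listed at 0.

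In every one of the 10 genes, MED13cTg replicate 1 was the highest and MED13cTg replicate 2 the lowest of the 6 fat libraries. As a ratio of FPKM + 0.1, replicate 1 exceeded the next highest fat library by 20.2-fold for Prm2, 27.3-fold for Smcp, 28.4-fold for Odf1 and 29-fold for Spata18. The ratio was 34.6-fold for Prm1, 40.7-fold for Akap4 and 41.2-fold for Tnp2. It was widest for Pgk2 at 57.7-fold, Tnp1 at 62.9-fold and Ldhc at 80.8-fold. All 10 of 10 genes were thus at least 10-fold higher there than in each other fat library, against 11.9% of the 14967 genes that averaged 1 FPKM or more over the fat libraries. Nothing is read from that count, since the genes were selected on it. The next highest library was WT replicate 3 for Prm2, Odf1, Smcp and Spata18, WT replicate 1 for Ldhc and Pgk2, and MED13cTg replicate 3 for the other 4.

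Because the 3 MED13cTg libraries lay on both sides of WT, no gene of the 10 separated the genotypes in fat: 0 of 10 had groups that did not overlap, against 12.7% of the 14967 genes. As the 10 genes were chosen on these values, that count is not read as a result. With limma 2 of the 14967 genes, or 0.0134%, passed an adjusted p of 0.05, both lower in MED13cTg. No outcome of this test is given for the 10 genes, which were chosen on the same values. At an unadjusted p under 0.05 the same fit counted 21 genes higher and 166 lower. When the replicate number was added as a block, 0 passed, with 17 higher and 279 lower at an unadjusted p under 0.05. The mean differences of log2(FPKM + 1), MED13cTg minus WT, are given without a test: they ran from 0.01 for Prm2 to 1.88 for Ldhc, and all 10 were above 0. With a pseudocount of 0.1 in place of 1, Prm2 was at -0.23 and Smcp at -0.18, and the other 8 stayed above 0. Without MED13cTg replicate 1 all 10 were below 0, from -2.49 for Prm2 to -0.45 for Spata18. Without MED13cTg replicate 2 all 10 were above 2, from 2.53 for Spata18 to 4.21 for Ldhc. Prm2 was also below 0 without WT replicate 1 (-0.13), WT replicate 2 (-0.18) or MED13cTg replicate 3 (-0.09). The difference between genotypes thus had no stable sign over the libraries left out. In tissue RNA, fewer cells of a type and less RNA per cell cannot be told apart.

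The other 4 fat libraries were not at 0. Summed over the 10 genes, FPKM was 261, 248 and 317 in WT and 17335, 8.05 and 386 in MED13cTg. The 10 genes held 2.42% of all FPKM in MED13cTg replicate 1, 0.00114% in MED13cTg replicate 2 and 0.027% to 0.0454% in the other 4 libraries. The sum in WT replicates 1 to 3 and MED13cTg replicate 3 thus lay between those of the libraries that stood apart, and MED13cTg replicate 3 was the highest of these 4. The epididymal epithelium sum given above was also lowest in MED13cTg replicate 2, at 221 FPKM against 59193 or more in those 4 libraries. In MED13cTg replicate 1 it was lower than in those 4, where the 10 genes were far lower. Their part in the levels of the 10 genes was not tested.

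The composition of the signal was not the same in each library. Relative to MED13cTg replicate 1, the median level of the 10 genes was 1.63% in WT replicate 1, with a range from 0.926% for Tnp1 to 2.72% for Spata18. In WT replicate 2 it was 1.3%, from 0.485% for Ldhc to 2.34% for Prm2. In WT replicate 3 it was 1.68%, from 0.232% for Ldhc to 4.94% for Prm2. The medians of the WT libraries were close, and the range between genes was widest in WT replicate 3. In MED13cTg replicate 3 the median was 2.38%, from 1.02% for Ldhc to 3.58% for Prm2. In MED13cTg replicate 2 it was 0.0484%, from 0.0196% for Smcp to 0.516% for Spata18.

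**Figure D2:**
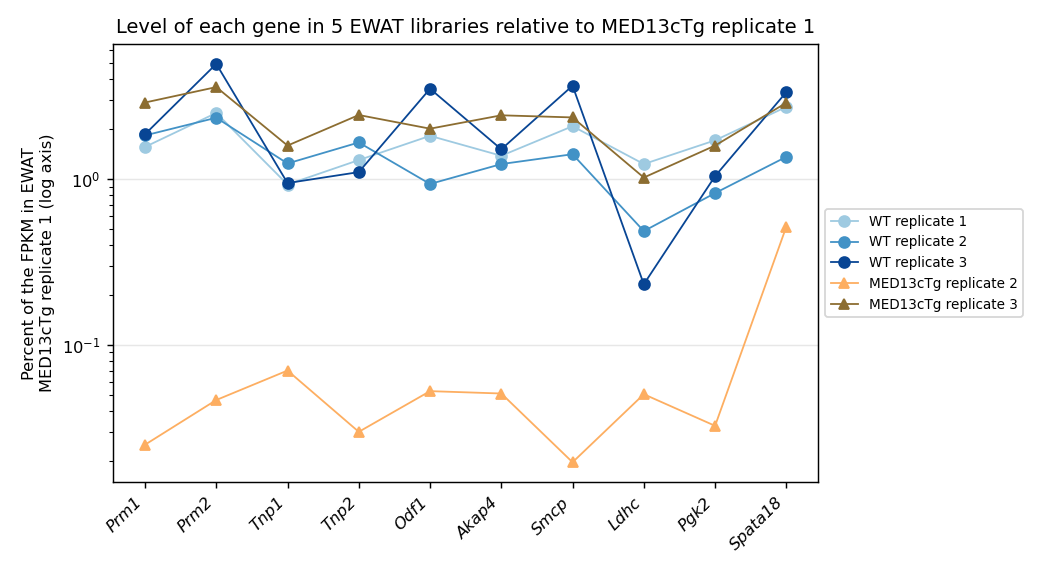
FPKM of each gene in 5 epididymal fat libraries as a percent of its FPKM in MED13cTg replicate 1 (log axis), with 1 line per library joining the genes. WT replicate 3 runs from 0.232% for Ldhc to 4.94% for Prm2, and MED13cTg replicate 2 lies lowest throughout.

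The contrast within a library was clearest between Prm2, transcribed in spermatids, and Ldhc, which starts in spermatocytes. The ratio of Prm2 to Ldhc was 1.62, 3.86 and 17.1 in WT and 0.801, 0.739 and 2.82 in MED13cTg replicates 1, 2 and 3. MED13cTg replicate 1 therefore had more Ldhc than Prm2, while the WT libraries had more Prm2 than Ldhc, most of all WT replicate 3. The ratio of Prm1 to Ldhc gave the same highest library, at 1.3, 3.91 and 8.27 in WT and 1.03, 0.513 and 2.93 in MED13cTg. The ratio of Smcp to Pgk2 was 2.73, 3.83 and 7.88 in WT and 2.24, 1.35 and 3.3 in MED13cTg. The ratio of Prm1 to Tnp1, both of the sperm head, was 1.6, 1.41 and 1.87 in WT and 0.953, 0.34 and 1.73 in MED13cTg. For all 4 ratios, each of which was chosen after the values were seen, both libraries that stood apart lay below the other 4. This order was thus not particular to pairs with Ldhc or Pgk2. In MED13cTg replicate 2 the ratios rest on low values, such as 0.16 FPKM for Smcp and 0.118 FPKM for Pgk2. Prm2 made up 40.5% of the summed FPKM of the 10 genes in WT replicate 3 and 15% in MED13cTg replicate 1, and Ldhc made up 2.37% and 18.7%. Within WT the genes did not share 1 order: 6 of the 10 were highest in WT replicate 3, 2 in WT replicate 2 and 2 in WT replicate 1.

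**Figure D3:**
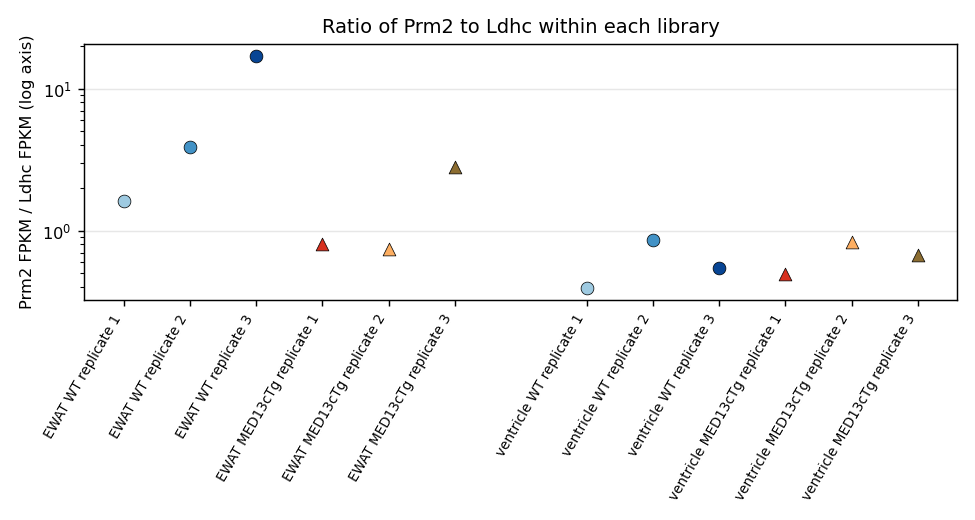
Ratio of Prm2 FPKM to Ldhc FPKM (log axis) in each of the 12 libraries, with 1 symbol per library (circles WT, triangles MED13cTg). The ratio is 17.1 in the fat of WT replicate 3 and 0.801 in the fat of MED13cTg replicate 1, and it is below 1 in all 6 ventricle libraries.

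The ventricles, in which no germ cells are found, served as a reference and were not used to choose the genes. Prm1 stood at 2.31, 5.2 and 3.43 FPKM in WT, against 3.4, 7.14 and 3.54 in MED13cTg. Prm2 stood at 2.25, 2.91 and 1.03 FPKM in WT, against 1.11, 3.05 and 2.08 in MED13cTg. Both protamines were thus detected in every ventricle library, and their genotypes overlapped. Tnp1 was the highest of the 10 by mean, at 8.62, 4.97 and 2.65 FPKM in WT, against 5.3, 9.81 and 6.61 in MED13cTg. Tnp2 stood at 2.56, 0.982 and 0.73 FPKM in WT, against 1.7, 2.7 and 3.12 in MED13cTg. Ldhc stood at 5.68, 3.38 and 1.9 FPKM in WT, against 2.24, 3.66 and 3.07 in MED13cTg. These 5 of the 10 genes averaged 1 FPKM or more. Of the 5 others, Smcp was listed at 0 in WT replicate 3 and reached at most 1.14 FPKM, and Odf1, Akap4, Pgk2 and Spata18 lay between 0.0934 and 0.597 FPKM in all 6 ventricle libraries.

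In the ventricles 0 of the 10 genes had groups that did not overlap, and so 0 of the 5 that averaged 1 FPKM or more. Among all 12589 genes at that level the share was 9.31%. A count of 0 of 5 lies near that share, so it is not read as a trait of these genes. With limma 0 of the 5 genes that passed the filter on expression were called, against 7 of 12589 genes, or 0.0556%, of which 3 were higher and 4 lower in MED13cTg. At an unadjusted p under 0.05 the same fit counted 213 genes higher and 382 lower, and 0 of the 5. The log2 difference, MED13cTg minus WT, was 0.28 ± 0.31 for Prm1 (SE; limma adjusted p = 0.966), 0.01 ± 0.32 for Prm2 (limma adjusted p = 0.999) and 0.43 ± 0.37 for Tnp1 (limma adjusted p = 0.966). It was 0.58 ± 0.30 for Tnp2 (limma adjusted p = 0.966) and -0.16 ± 0.31 for Ldhc (limma adjusted p = 0.971). Tnp2 had the lowest unadjusted p of the 5, at 0.0967 with limma. A p above the threshold does not show that the levels were the same. The signs for Prm1, Prm2 and Ldhc turned with the library left out: Prm1 was at -0.01 and Prm2 at -0.21 without MED13cTg replicate 2, Prm2 was at -0.26 without WT replicate 3 and -0.01 without MED13cTg replicate 3, and Ldhc was at 0.15 without WT replicate 1.

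The ventricle levels give a scale for the lowest fat library. Summed over the 10 genes they were 24.3, 19.5 and 10.7 FPKM in WT, against 15.8, 29.3 and 20 in MED13cTg, so each ventricle library held more than the 8.05 FPKM of MED13cTg replicate 2 of fat. As a percent of the sum in MED13cTg replicate 1 of fat they ran from 0.0618% to 0.169%. Genes of the epididymal epithelium were also read in the ventricles. Their sums were 99.7, 63.1 and 47.8 FPKM in WT, against 43.5, 96.2 and 62.9 in MED13cTg, or 0.0643% to 0.147% of the mean WT fat sum. The 2 ventricle libraries with the highest sum over the 10 genes, MED13cTg replicate 2 and WT replicate 1, were also the 2 with the highest epididymal sum. The ratio of Prm2 to Ldhc was between 0.395 and 0.863 in the ventricles. These sums compare libraries and were not tested.

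**Figure D4:**
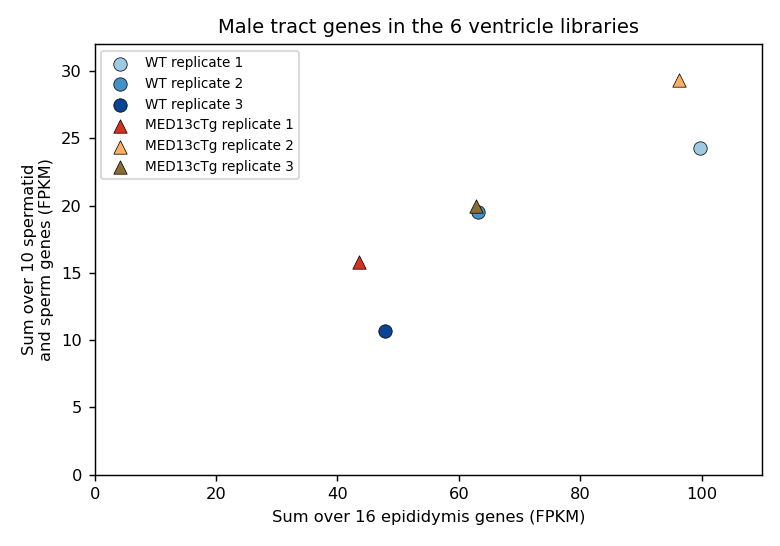
Sum of FPKM over the 10 spermatid and sperm genes (vertical axis) against the sum over 16 genes of the epididymal epithelium (horizontal axis) in the 6 ventricle libraries, with 1 symbol per library. MED13cTg replicate 2 and WT replicate 1 are highest on both axes, at 29.3 and 24.3 FPKM and at 96.2 and 99.7 FPKM.

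To see which stages of germ cell life were present beside the 10 genes, 9 lists of other germ cell genes were read in fat, chosen with earlier results of these data known. Of 107 genes listed 105 were found in the fat table. Of these, 101 averaged 1 FPKM or more in fat and 92 of these 101 were at least 10-fold higher in MED13cTg replicate 1 than in each other fat library, against the 11.9% given above for all genes at that level. Over all 105 the count was 96. The mean includes MED13cTg replicate 1, so some genes reached 1 FPKM only through that library. Rhox13, for example, was at 7.72 FPKM there and at most 0.0521 FPKM in the other fat libraries. For such genes the filter nearly sets the outcome, here and in the lists below, so nothing is read from 92 of 101 against 11.9%. MED13cTg replicate 1 was the highest fat library for 102 of the 105 and MED13cTg replicate 2 the lowest for 81. Among the WT libraries, replicate 1 was highest for 86 of the 105, and for 2 of the 10 spermatid and sperm genes. Other lists of sperm genes went with the 105, such as 14 of 15 genes of the acrosome and of egg binding. The share of all genes with the same highest or lowest library was not taken, so nothing is read from these counts.

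Most genes of meiosis and all of the general germ cell genes were included. Of 15 meiotic genes 13 were at least 10-fold higher in MED13cTg replicate 1. Sycp3, which builds the axis of the synaptonemal complex, stood at 259 FPKM there and at 5.1 to 17.2 FPKM in the other fat libraries. Syce1, of the central element of the same complex, stood at 235 FPKM there and at 0.261 to 4.2 FPKM in the others. A list that joins genes of all germ cell stages with genes of pachytene spermatocytes had 11 genes in the table, and all 11 were at least 10-fold higher. Mael, which acts in the piRNA pathway, stood at 980 FPKM against 12.4, 6.24 and 2.71 FPKM in WT. Hspa2, a heat shock protein abundant in spermatocytes, stood at 369 FPKM against 20.9, 13.6 and 15 FPKM in WT. Clgn, an endoplasmic reticulum chaperone for sperm surface proteins, stood at 329 FPKM against 4.99, 1.65 and 0.771 FPKM in WT. For this list WT replicate 1 was highest and WT replicate 3 lowest of WT by the median, at 1.66% and 0.293% of MED13cTg replicate 1, and WT replicate 1 was the highest WT library for all 11 genes. Ybx2, a protein that binds stored messages in germ cells, had the highest level of the list at 1638 FPKM, but it was also at 31.8 to 51 FPKM in the ventricles.

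Genes of the spermatid and of sperm structures followed. All 18 sperm tail genes in the table and all 15 genes of the acrosome and of egg binding were at least 10-fold higher in MED13cTg replicate 1, as were 8 of 8 genes of the list of spermatid kinases, 9 of 10 germ cell forms of metabolic enzymes, 9 of 10 spermatid chromatin genes and 7 of 8 regulators of spermatid gene expression. The list of kinases also held Csnka2ip, which is not itself a kinase. Of the 9 chromatin genes so counted, 6 averaged 1 FPKM or more. The rest were Hist1h1t, Hist1h2ba and Hist1h2aa, at 2.39, 4.69 and 5.69 FPKM there and at or near 0 in the other fat libraries. Ropn1l, of the fibrous sheath, stood at 1083 FPKM there and at 9.31 to 23.2 FPKM in the other fat libraries. Odf2, of the outer dense fibers and also of centrosomes, stood at 858 FPKM there and at 22.1 to 33.9 FPKM in the others. Among the WT libraries, replicate 1 was highest for 17 of the 18 tail genes. The exception was Oaz3, an antizyme of spermatids, highest in WT replicate 3 at 20.2 FPKM, as Prm2, Odf1 and Smcp were. Oaz3 stood at 847 FPKM in MED13cTg replicate 1. Of the acrosomal genes Dkkl1 stood at 936 FPKM there and at 0.627 to 27.3 FPKM in the others. Adam3, needed for sperm to bind the egg coat, stood at 410 FPKM there and at 0.569 to 5.53 FPKM in the others.

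Among the chromatin genes Hils1, a linker histone of spermatids, stood at 416 FPKM in MED13cTg replicate 1 and at 0.219 to 6.11 FPKM in the other fat libraries, but it was also at 9.83 to 18.5 FPKM in the ventricles. Prm3, the neighbour of Prm1 and Prm2, stood at 249 FPKM against 4.05, 4.01 and 3.54 FPKM in WT, and was listed at 0 in MED13cTg replicate 2. Of the regulators, Tbpl1, a relative of the TATA-binding protein, stood at 388 FPKM there and at 15.6 to 28.1 FPKM in the others. Papolb, a poly(A) polymerase of spermatids, stood at 242 FPKM there and spanned a wider range below it, from 0.154 to 2.83 FPKM. The kinases Tssk1 and Tssk2 were much alike, at 141 and 138 FPKM there and at most 2.44 and 2.11 FPKM in the others. Of the metabolic genes Cox8c, a testis form of a cytochrome c oxidase subunit, stood at 1094 FPKM there and was listed at 0 in MED13cTg replicate 2. Ldhal6b, which shares its entry with 5730437N04Rik and is therefore uncertain, stood at 596 FPKM there and at 71.3 to 78.7 FPKM in the others, and was the 1 metabolic gene under 10-fold.

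**Figure D5:**
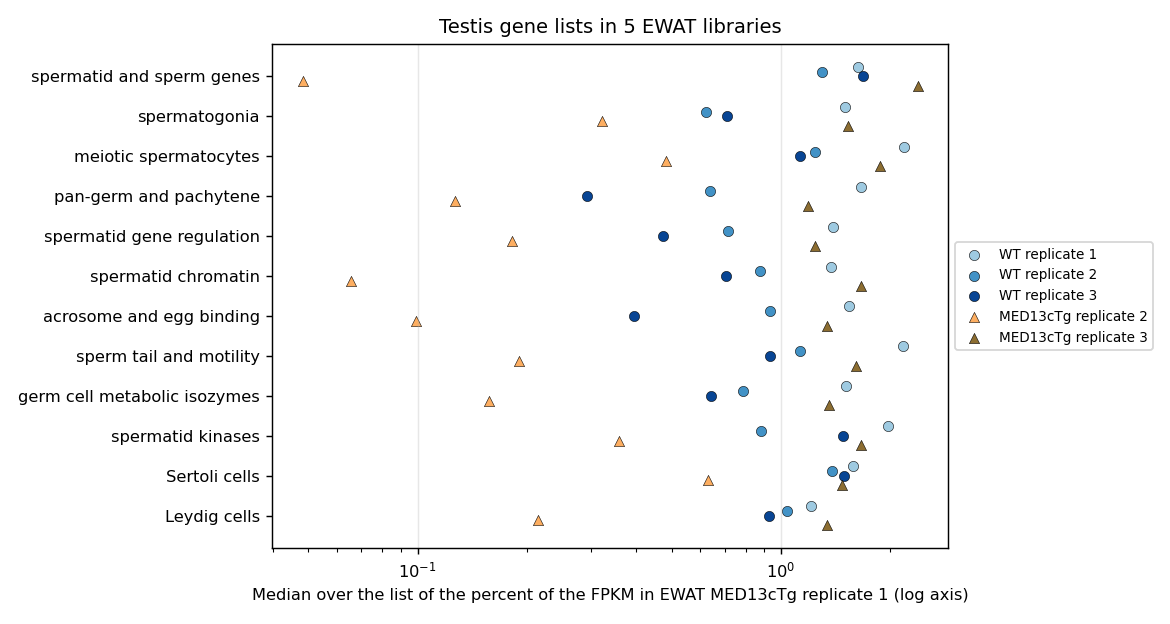
Median over each gene list of the level as a percent of MED13cTg replicate 1 (log axis) in the 5 other epididymal fat libraries, with 1 symbol per library. For WT replicate 3 the median is 1.68% for the 10 spermatid and sperm genes and 0.293% for the list of general and pachytene germ cell genes. For WT replicate 1 these medians are 1.63% and 1.66%. The medians of WT replicate 3 do not follow the stages: 1.13% for meiotic genes, 1.48% for the list of spermatid kinases and 0.395% for genes of the acrosome and of egg binding.

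Marker genes of the other testis cells did not all move one way. Of 9 Sertoli cell genes found, 8 were highest in MED13cTg replicate 1 and 7 were at least 10-fold higher there, of which 5 averaged 1 FPKM or more. Cst9 stood at 553 FPKM against 0.435 to 6.14 FPKM in the other fat libraries, and Aard at 198 FPKM against 1.24 to 3.13 FPKM. Fshr, the receptor for follicle-stimulating hormone and a defining Sertoli marker, was at 1.83 FPKM and listed at 0 in the other 5. The 2 exceptions, named after their values were seen, were Cldn11, a junction protein, at 68.8 FPKM and 4.06-fold, and Sox9, a defining Sertoli factor that other epithelia also use, which was lower there, at 4.29 FPKM against 14.2, 10.8 and 12 FPKM in WT.

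Of 8 Leydig cell genes all 8 were highest in MED13cTg replicate 1 and 6 were at least 10-fold higher, of which 5 averaged 1 FPKM or more. Insl3, a peptide hormone whose entry is joined with Jak3 and therefore uncertain, stood at 1160 FPKM there and at 11.6 to 23.4 FPKM in the other fat libraries. Cyp11a1, the first enzyme of steroid synthesis, stood at 62.7 FPKM against 0.105 to 0.869 FPKM. Cyp17a1, which makes androgen precursors, was one of the exceptions, at 102 FPKM there and 15.6 FPKM in WT replicate 1, and Star, named after its values were seen, was the other, at 13.7 FPKM against 1.1 to 1.71 FPKM.

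Of 10 spermatogonial genes 6 were at least 10-fold higher in MED13cTg replicate 1, of which 5 averaged 1 FPKM or more. Dmrtb1, which acts at the entry into meiosis, stood at 529 FPKM there and at 0.208 to 12.4 FPKM in the others, and Dmrt1 at 13 FPKM against at most 0.133 FPKM. Zbtb16, Gfra1 and Nanos3, named after their values were seen, were not higher, at 1.34, 7.15 and 1.68 FPKM against 4.72, 37.5 and 1.96 FPKM in WT replicate 1. Of the 16 epididymal and the 13 adipocyte genes 0 were at least 10-fold higher in that library. Lcn8, a lipocalin of the epididymis, was at 2840 FPKM there against 20004 to 26782 FPKM in WT, and Spink8, a protease inhibitor, at 1484 FPKM against 6390 to 8368 FPKM. Crisp1 and Cst12, named after their values were seen, were not lowered in that way. Crisp1 was at 383 FPKM there against 1706, 62.5 and 193 FPKM in WT. Cst12 was at 466 FPKM there against 637, 474 and 761 FPKM in WT. Of the adipocyte genes, the fatty acid carrier Fabp4 was at 726 FPKM against 8454 to 23380 FPKM in WT, and the adipokine Cfd at 304 FPKM against 2531 to 3452 FPKM. The part of any of these cell types in the levels of the 10 genes was not tested.

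The whole set of genes at least 10-fold higher in MED13cTg replicate 1 numbered 1780, and these held 29.1% of all FPKM there against 0.25% to 0.593% in the other 5 fat libraries. These genes were picked for being high in that library, so a larger share there was set in advance and nothing is read from it. Among those outside the 10 genes, the highest in that library were an entry with no symbol, the short RNA entries Snord70, Mir1956, Mir468 and Mir3968, and Meig1, Fabp9, Ybx2, 1700025K23Rik and 4732415M23Rik. Meig1, which is needed for spermatids to form a tail, stood at 2920 FPKM there and at 46.9, 22.1 and 9.45 FPKM in WT. Fabp9, a fatty acid binding protein of the sperm head, stood at 2000 FPKM there and at 27.8, 17.4 and 10.2 FPKM in WT.

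The genes most like the mean of the 10, by Pearson correlation of log2(FPKM + 1) over the 6 fat libraries, were Ovol2 (r = 0.9991), Mesp2, Mapk10, Itgae, 2310033E01Rik, 1110051M20Rik, Fbxw7, Spz1, Gm872 and Vdr (r = 0.9973). The values share all 6 libraries, the pair that stood apart included. Of 14957 other genes 110, or 0.735%, reached 0.99 and 2701 reached 0.9. Spz1, a transcription factor of spermatids, was at 6.1, 4.53 and 6.68 FPKM in WT, against 345, 0.0784 and 9.18 in MED13cTg. Fbxw7, a ubiquitin ligase subunit made by most cells, shared the order with a far smaller span, at 5.09 to 14.2 FPKM. Each of the 10 genes had r of 0.957 to 0.995 with the mean of the other 9, lowest for Spata18 and highest for Tnp1. The 10 genes were chosen on these same values, so nothing is read from how closely they moved together.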

How the data were processed

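Reads were aligned by the authors with TopHat to mm9, per the submitters' processing notes, and FPKM per gene were estimated with Cufflinks, both at default settings, whose versions are not given in the sources used here. The FPKM were deposited with the tissues in separate tables. Short and low genes have the least precise values, and absolute depth is unknown; relative fragments were taken from FPKM under 0.15. Entries that join several symbols, 341 per tissue, are uncertain. For fat, 1 unnamed value column was not used, nor were the authors' means and folds.

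Samples were grouped by the labels' genotype and tissue. That replicates are separate mice rests on the labels and methods. For each tissue, genes averaging 1 FPKM or more were fitted as log2(FPKM + 1) by limma 3.58.1 (R 4.3.3, trend, Benjamini-Hochberg threshold 0.05, no covariate), after the fit was tested on simulated data. The simulated libraries took their means and spread from WT, apart from changes set in some genes. They therefore do not show how the fit handles libraries that stand apart, as 2 did in fat. Fold changes on the log2(FPKM + 1) scale understate those of low genes. Ratios to MED13cTg replicate 1 used FPKM + 0.1. Python 3.11.15, numpy 2.4.6, pandas 2.3.3 and matplotlib 3.10.9 did the rest. Deviations of same-numbered libraries in fat had r of 0.347, 0.304 and 0.144. The numbers served as pairs only in the replicate block, from the data and not from the labels, and the reported fit did not use them. Replicate 3 correlated more with another number (0.168), and whether the libraries that stood apart set these correlations was not tested.

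The 10 genes, the lists and the tests were chosen with earlier results of these data known. Named are the 10 genes, for each list of germ, testis, epididymal and fat cell genes 2 to 4 genes with the highest FPKM in MED13cTg replicate 1 and defining markers near 0, the 10 genes most like the mean, and the 10 other genes with the highest FPKM in that library among those at least 10-fold higher there; the ratios of gene pairs were picked after values were seen. Alternatives were the pseudocount, the filter, scaling, the fold, the replicate block and leaving out each library.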

Additional observations from a re-analysis of the deposited data

How the results depend on the processing

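The count of the 10 genes at least 10-fold higher in MED13cTg replicate 1 of fat stayed at 10 with a pseudocount of 1 or 0.01, with median-of-ratios scaling, at 5-fold and 20-fold, and without each other fat library. The limma count in fat, 2 as reported, was 0 with no filter on expression (68 higher and 255 lower at an unadjusted p under 0.05) and 0 with the replicate block. It was 1 to 5 when a library was left out: 5 without WT replicate 1 or 3 (1 higher, 4 lower), and 1 without MED13cTg replicate 2 or 3. The direction turned: both calls as reported were lower in MED13cTg, while without MED13cTg replicate 1 it was 2 higher and 0 lower, and without replicate 2 or 3 the 1 call was higher. In the ventricles the count was 7 as reported, 3 with the filter at a mean of 5 FPKM and 4 to 9 when a library was left out, with 4 without MED13cTg replicate 2. With the replicate block it was 4, although same-numbered ventricle libraries did not deviate together (r = 0.0855, -0.192 and 0.14). The causes were not tested. In fat, the untested difference of Prm2 was -0.23 and that of Smcp -0.18 with a pseudocount of 0.1. In the ventricles the log2 difference changed sign for Prm1 (-0.01 to 0.51), Prm2 (-0.26 to 0.26, with -0.21 and -0.01 between) and Ldhc (-0.45 to 0.15) when libraries were left out, and the lowest limma adjusted p over all alternatives was 0.424, for Tnp1 and Tnp2. FPKM under 1 rest on few fragments, so that the order of the 10 genes in MED13cTg replicate 2 of fat and in the ventricles is imprecise.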
